A study of Homo sapiens with 12 samples.

Results

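The SLC39 genes encode the ZIP transporters, which move zinc into the cytosol from outside the cell or out of organelles. The 10 genes described here are SLC39A1, SLC39A3, SLC39A4, SLC39A5, SLC39A6, SLC39A7, SLC39A8, SLC39A10, SLC39A11 and SLC39A14. They were chosen by name, with earlier results of these data known, and the other measured SLC39 genes are described further on. A probe set (a group of short probes read as 1 value) was counted where the array annotation gives it exactly 1 of these symbols. That gave 23 probe sets of the 41097 with 1 symbol, and all 10 genes of the 19775 genes measured. No probe set that the annotation gives several symbols carries a member.

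RNA was measured on 12 expression arrays of the established line Caco-2, which comes from a human colon carcinoma and, left confluent, differentiates towards absorptive enterocytes. The cells were at passage 22 and had been confluent for 21 days. The 4 groups of 3 arrays were cells given surfactant coated silver nanoparticles (AgPURE) at 2.5 µg/mL, the same particles at 25 µg/mL, silver ions given as AgNO3 at 0.5 µg/mL, and medium alone, each for 24 h in 20 mL of DMEM with an insulin, transferrin and selenium supplement and antibiotics. No group had the surfactant without silver. Whether the 3 arrays of a group hold separate cultures is not stated, and the p-values then cover only array-to-array spread, which may be technical.

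Zinc cannot cross membranes freely, and its level in the cytosol is set by importers of the SLC39 family, exporters of the SLC30 family (ZnT) and the zinc-binding metallothioneins. In enterocytes, SLC39A4 (ZIP4) takes up dietary zinc at the brush border and its loss causes the zinc deficiency acrodermatitis enteropathica, while SLC39A5 (ZIP5) lies on the basolateral side in mice. The zinc-sensing transcription factor MTF1 binds metal response elements and switches on metallothionein genes and SLC30A1, and in mouse and zebrafish it holds down the gene for ZIP10.

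Arrays of the same group correlated across probe sets with r between 0.992 and 0.996, and the 25 µg/mL arrays correlated with the medium arrays with r between 0.978 and 0.981. The spike-in probe sets were higher at 25 µg/mL than in medium, by 0.61 on the log2 scale for the 24 poly-A controls and by 0.43 for the 18 hybridization controls. The poly-A means were 6.21, 5.56 and 6.31 at 25 µg/mL and 5.31 to 5.54 in medium. Every direction given here is the one in the deposited values, where the median gene stood at -0.011 in this comparison, and the effect of spike-in scaling is given with the members. Of 4 epithelial markers, all abundant, KRT18 was called higher (14.03 at 25 µg/mL and 13.71 in medium, a call lost under spike-in scaling), CDH1 lower (12.03 and 12.46) and EPCAM (13.02 and 13.20) and KRT8 not. Also abundant were the enterocyte markers VIL1 (9.88 and 10.38) and CDH17 (10.62 and 10.57). The enterocyte markers SI (3.45 and 3.56), ANPEP (4.34 and 4.13) and FABP2 (4.23 and 4.18) lay below the median of all genes, 5.80. So did KRT20 (4.77 and 4.69), APOA4 (5.03 and 5.58) and SLC15A1 (5.37 and 5.74). Of 12 enterocyte markers 6 were lower and 0 higher at 25 µg/mL, with array means of 6.13 to 6.16 against 6.47 to 6.61 in medium. The 6 were FABP1 (-1.59), ALPI (-1.38), APOA4 (-0.55), VIL1 (-0.50), CDX2 (-0.44) and SLC15A1 (-0.37). Over all genes 19.3% were called lower and 14.1% higher, shares that stand beside each marker list here. In bulk RNA fewer cells of a type and less RNA per cell cannot be told apart. Of 5 goblet and 4 measured enteroendocrine markers 0 were called. Of 6 fibroblast markers 1 was higher and 2 lower (array means 5.32 to 5.39 at 25 µg/mL, 5.73 to 5.84 in medium). Of 4 measured leukocyte markers 1 was lower (5.06 to 5.42 at 25 µg/mL, 5.48 to 5.61 in medium). Above the median gene in medium were COL1A1 (8.97 at 25 µg/mL and 9.21 in medium), COL3A1 (5.42 and 7.27) and LYZ (7.68 and 8.99). COL3A1 and LYZ were called lower. The rest of both lists, PTPRC (3.96 and 3.99) among them, lay below 5.80. The part of these markers in the results was not tested.

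At 25 µg/mL of particles, 6 of the 10 importer genes fell, 1 rose and 3 did not pass the test. The falls were of SLC39A11, SLC39A10, SLC39A5, SLC39A8, SLC39A7 and SLC39A14, and the rise was of SLC39A3. SLC39A4, the brush border importer, was among those that did not pass. Across all genes, 19.3% were lower and 14.1% higher by the same rule, an adjusted p under 0.05 in limma. These shares count dim genes too, while all members but SLC39A4 lay in percentiles 61 to 99 of all genes in medium. Most calls over all genes remained when dim genes, SLC39A4 among them, were left out, so both shares were larger among the brighter genes. The members thus stand out less than these shares make it seem. The shares of all genes given below are likewise not matched for brightness. The members' median log2 fold change was -0.47, beside -0.011 for all genes. The arrays of the 2 groups did not overlap for the same 7 calls, 6 lower and 1 higher, where 25.9% of all genes were lower and 19.8% higher without overlap.

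**Figure D1:**
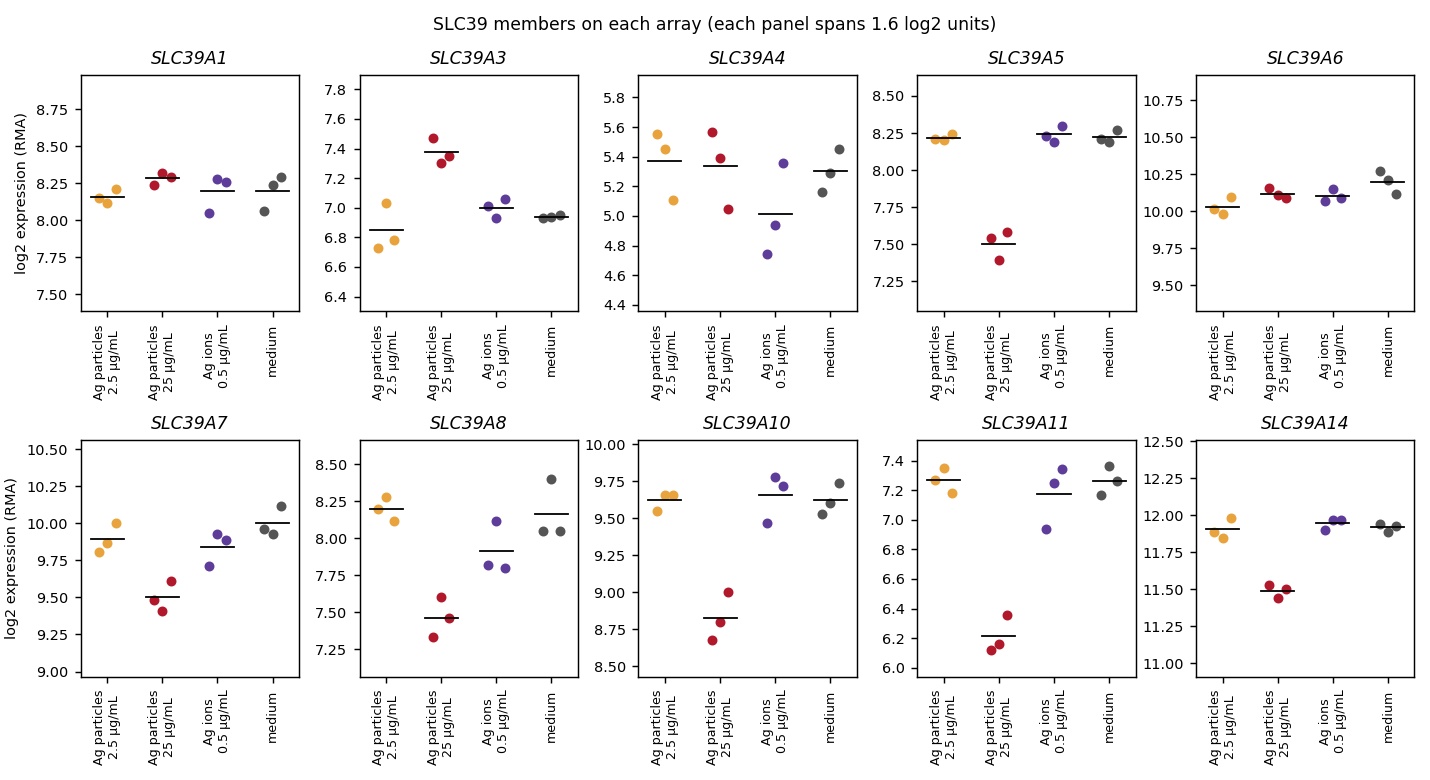
Log2 expression (vertical axis) of the 10 SLC39 members on each array, 1 panel per gene with its brightest probe set, by group (horizontal axis). Points are arrays and bars are group means. SLC39A11 at 25 µg/mL lies between 6.12 and 6.36, below all medium arrays at 7.17 to 7.36, and SLC39A3 at 25 µg/mL lies above every other group.

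Upstream sequence is shown for SLC39A11 and SLC39A5, which fell and held no match, and for SLC39A8 and SLC39A3, which changed and held a match. A match is to the core of metal response elements, the DNA sites that MTF1 binds. No other kind of site was searched. The core was searched as TGCACNC and TGCGCNC, which differ in 1 letter, on both strands of the 250 bases before the most upstream start that the RefSeq promoter table (GRCh38.p14) lists for each gene. For 7 members that start is the outer end of the annotated gene, while for SLC39A10 it lies within the annotated gene, so its window is not upstream of the whole gene. A window was listed for 8 members, and 3 of them held a core, as did 24.7% of 27324 windows of the same length. The windows are chr17:73092689-73092938 (minus strand) for SLC39A11, chr12:56229801-56230050 (plus strand) for SLC39A5, chr4:102345483-102345732 (minus strand) for SLC39A8 and chr19:2740077-2740326 (minus strand) for SLC39A3, written 5′ to 3′ with core matches in capitals.
SLC39A11: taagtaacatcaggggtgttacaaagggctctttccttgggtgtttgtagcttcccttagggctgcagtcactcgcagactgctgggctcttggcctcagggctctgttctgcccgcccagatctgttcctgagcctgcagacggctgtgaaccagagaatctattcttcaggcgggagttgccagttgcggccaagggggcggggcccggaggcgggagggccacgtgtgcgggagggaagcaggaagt
SLC39A5: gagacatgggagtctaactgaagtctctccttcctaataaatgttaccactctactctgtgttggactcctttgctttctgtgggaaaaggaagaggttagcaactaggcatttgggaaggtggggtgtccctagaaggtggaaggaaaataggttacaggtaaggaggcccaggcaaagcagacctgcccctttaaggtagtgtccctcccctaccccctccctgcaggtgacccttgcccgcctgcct
SLC39A8: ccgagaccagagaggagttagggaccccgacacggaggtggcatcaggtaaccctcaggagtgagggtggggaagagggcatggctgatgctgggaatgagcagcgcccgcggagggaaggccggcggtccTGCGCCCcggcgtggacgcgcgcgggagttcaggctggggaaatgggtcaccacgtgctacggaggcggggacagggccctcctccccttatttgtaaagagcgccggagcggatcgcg
SLC39A3: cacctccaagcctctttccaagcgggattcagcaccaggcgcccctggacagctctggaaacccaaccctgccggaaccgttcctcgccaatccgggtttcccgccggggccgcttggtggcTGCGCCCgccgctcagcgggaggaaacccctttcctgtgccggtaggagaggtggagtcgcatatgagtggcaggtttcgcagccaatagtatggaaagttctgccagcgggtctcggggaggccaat

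SLC39A8, which fell, and SLC39A3, which rose, each held 1 match with the same letters. Its first base was at position -119 in SLC39A8 and -128 in SLC39A3, counted from the listed start. The other match was in SLC39A6, at position -17, which was not called. SLC39A11, SLC39A5, SLC39A7 and SLC39A1 held 0 matches, as did the internal window of SLC39A10. The same search gave matches for 5 of 5 metallothionein windows (7 for MT2A, 4 for MT1X). It also gave matches for 5 of 9 SLC30 windows (1 for SLC30A1), with 0 for SLC30A5, SLC30A7, SLC30A9 and SLC30A10. Windows on chromosome 8 were left out of these lists too, and SLC30A8 is not among the 9. A match is a string of letters and not a shown binding site, and a window without one says nothing of the factor.

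SLC39A11 (ZIP11), the only human member of the gufA subfamily and a zinc transporter of intracellular membranes, showed the largest fall by the brightest probe set, while a dimmer probe set of SLC39A5 fell further. Its log2 values were 6.12, 6.16 and 6.36 at 25 µg/mL, against 7.17, 7.36 and 7.26 in medium. All 3 high-dose arrays lay below the 9 others. The log2 fold change was -1.05 ± 0.11 (SE, 3 arrays each, limma adjusted p = 4.4e-06), which is 2.07-fold lower. The other exposures gave 7.27, 7.35 and 7.18 at 2.5 µg/mL and 6.94, 7.25 and 7.34 with ions, both overlapping the medium arrays.

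SLC39A10 (ZIP10), a plasma membrane importer of the LIV-1 subfamily, had 8.68, 8.80 and 9.00 at 25 µg/mL, against 9.53, 9.60 and 9.74 in medium. The groups were apart, with a log2 fold change of -0.80 ± 0.10 (limma adjusted p = 3.6e-05), or 1.74-fold lower. At 2.5 µg/mL its values were 9.55, 9.66 and 9.66, and with ions 9.47, 9.78 and 9.72. Both groups overlapped the medium arrays. SLC39A6 (ZIP6), its closest relative and its partner in a joint transporter, was not called. SLC39A6 had 10.16, 10.11 and 10.09 at 25 µg/mL, against 10.27, 10.21 and 10.12 in medium, which overlap (log2 fold change -0.08, 95% interval -0.24 to 0.08, limma adjusted p = 0.49).

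SLC39A5 (ZIP5) fell on both of its probe sets. The brighter gave 7.54, 7.39 and 7.58 at 25 µg/mL, against 8.21, 8.19 and 8.27 in medium, a log2 fold change of -0.72 ± 0.08 (limma adjusted p = 6.1e-06). The dimmer gave 5.58, 5.62 and 5.73 at 25 µg/mL, against 6.81, 6.93 and 7.31 in medium. Its change of -1.38 ± 0.15 (limma adjusted p over all probe sets = 5.3e-06) was the largest of any of the 23 probe sets, so the size of the fall depends on the probe set read. The brighter probe set had 8.21, 8.20 and 8.24 at 2.5 µg/mL and 8.23, 8.19 and 8.30 with ions, level with medium to within 0.02 in the mean. SLC39A4 (ZIP4) had 5.57, 5.39 and 5.05 at 25 µg/mL, against 5.16, 5.29 and 5.45 in medium. Its low-dose values, 5.55, 5.45 and 5.11, span a similar range. These groups overlap, and the difference of 0.04 between 25 µg/mL and medium has a 95% interval of -0.32 to 0.39. Its 1 probe set lay in percentile 45 of all genes in medium, below the median gene, and the values carry no detection calls, so whether it stood above background is unknown.

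SLC39A8 (ZIP8) and SLC39A14 (ZIP14) are closely related carriers of zinc that also transport manganese and iron. SLC39A8 had 7.33, 7.60 and 7.46 at 25 µg/mL, against 8.05, 8.40 and 8.05 in medium (log2 fold change -0.70 ± 0.12, limma adjusted p = 0.00029). SLC39A14 had 11.53, 11.44 and 11.50 at 25 µg/mL, against 11.94, 11.89 and 11.93 in medium (log2 fold change -0.44 ± 0.07, limma adjusted p = 0.00035). In both genes the high-dose arrays lay wholly below medium, by a factor of 1.63 for SLC39A8 and 1.35 for SLC39A14. The low dose gave 8.20, 8.28 and 8.12 for SLC39A8 and 11.89, 11.85 and 11.98 for SLC39A14, both overlapping medium, and the ions gave 11.90, 11.97 and 11.97 for SLC39A14. With the mean of all probe sets of a gene, both calls were lost, at -0.14 (adjusted p = 0.15) for SLC39A8 and -0.18 (adjusted p = 0.055) for SLC39A14.

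That alternative averages bright probe sets with dim ones. Of the 6 SLC39A8 probe sets, a second one also fell, with a mean of 5.23 at 25 µg/mL and 5.80 in medium (-0.56 ± 0.13). The remaining ones had medium means between 3.52 and 4.30 and differences between 0.05 and 0.20, none called. Of the 3 SLC39A14 probe sets, 1 dim set had 5.12, 4.71 and 4.90 at 25 µg/mL, against 5.17, 5.46 and 5.23 in medium (-0.37 ± 0.13, limma adjusted p = 0.043). It was as low with ions, with a mean of 4.89 ± 0.13 (SD, 3 arrays) and all arrays below medium, which was not called (-0.39 from medium, limma adjusted p = 0.64), and 25 µg/mL differed from ions by 0.02 (95% interval -0.26 to 0.30). The dimmest set had a difference of 0.25 at 25 µg/mL (means 3.89 and 3.63) and of 0.25 with ions, neither called. The probe sets of a gene read the same RNA and are not replicates.

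SLC39A7 (ZIP7), which releases zinc from the endoplasmic reticulum and Golgi, had 9.48, 9.41 and 9.61 at 25 µg/mL, against 9.96, 9.93 and 10.12 in medium. The arrays did not overlap, and the log2 fold change was -0.50 ± 0.09 (limma adjusted p = 0.00071), or 1.42-fold lower. At 2.5 µg/mL the values were 9.81, 9.87 and 10.00, and with ions 9.71, 9.93 and 9.89. Both groups overlapped the medium arrays.

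SLC39A3 and SLC39A1 are plasma membrane importers of subfamily II. SLC39A3 (ZIP3) had 7.47, 7.30 and 7.35 at 25 µg/mL, against 6.93, 6.94 and 6.95 in medium, with no overlap (log2 fold change 0.43 ± 0.09, limma adjusted p = 0.0018), or 1.35-fold higher. Its values were 6.73, 7.03 and 6.78 at 2.5 µg/mL and 7.01, 6.93 and 7.06 with ions, so the high-dose arrays were above all others. The rise rests on 1 of its 3 probe sets. Its other probe sets lay at medium means of 4.74 and 4.19 and had differences of 0.04 and 0.11, neither called, and the mean of the probe sets gave 0.19 (adjusted p = 0.054). SLC39A1 (ZIP1), a widely expressed relative, had 8.24, 8.32 and 8.29 at 25 µg/mL, against 8.06, 8.24 and 8.29 in medium, which overlap (difference 0.09, 95% interval -0.10 to 0.28). The low dose gave 8.15, 8.12 and 8.21 and the ions 8.05, 8.28 and 8.26.

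**Figure D2:**
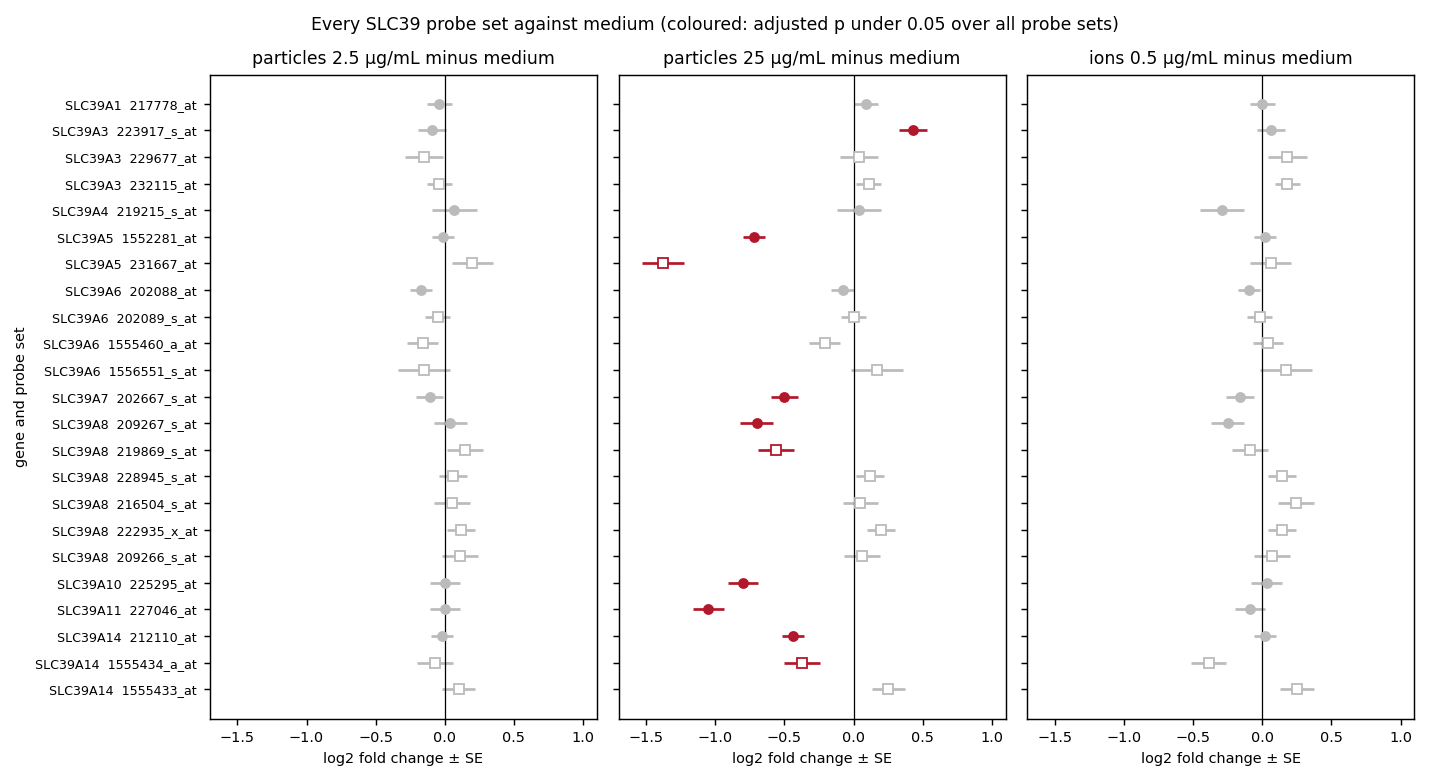
Log2 fold change with its SE (horizontal axis) of all 23 SLC39 probe sets (vertical axis) in each exposure against medium. Filled circles are the brightest probe set of a gene and open squares the others, with colour for an adjusted p under 0.05 over all probe sets. At 25 µg/mL 9 probe sets were lower and 1 higher, and in the other comparisons 0 were called.

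Over all probe sets, 9 of the 23 were called lower at 25 µg/mL and 1 higher, where 15.9% and 13.0% of all 41097 probe sets were. The 2 SLC39A5 sets, 2 of SLC39A8 and 2 of SLC39A14 account for 6 of these falls. Without regard to the test, 9 were lower and 4 higher with no overlap of arrays, beside 22.6% and 19.1% of all probe sets. Of the 5 genes with several probe sets, SLC39A5 alone had all of them called in the same direction.

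Spike-in scaling changed the calls of the members with the smallest differences and of SLC39A3. When arrays were set equal on the poly-A controls, the median of all genes moved to -0.62, and on the hybridization controls to -0.44. The 6 falls remained calls under both, running with poly-A controls from -1.66 (SLC39A11) to -1.05 (SLC39A14) and with hybridization controls from -1.48 to -0.86 for these genes. Of the 19775 genes, 14081 were called lower with poly-A and 12835 with hybridization controls, against 3811 in the deposited values. Both scalings lower every gene at 25 µg/mL relative to medium, so they are a weak check of a fall. The rise of SLC39A3 was lost, at -0.18 (adjusted p = 0.47) and 0.00 (adjusted p = 0.98). SLC39A1, SLC39A4 and SLC39A6 became lower calls under both. Since 1 factor per array is applied to every gene, each value relative to the median gene stayed where it was, at -1.04 for SLC39A11, -0.42 for SLC39A14 and 0.44 for SLC39A3 in all 3 settings.

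**Figure D3:**
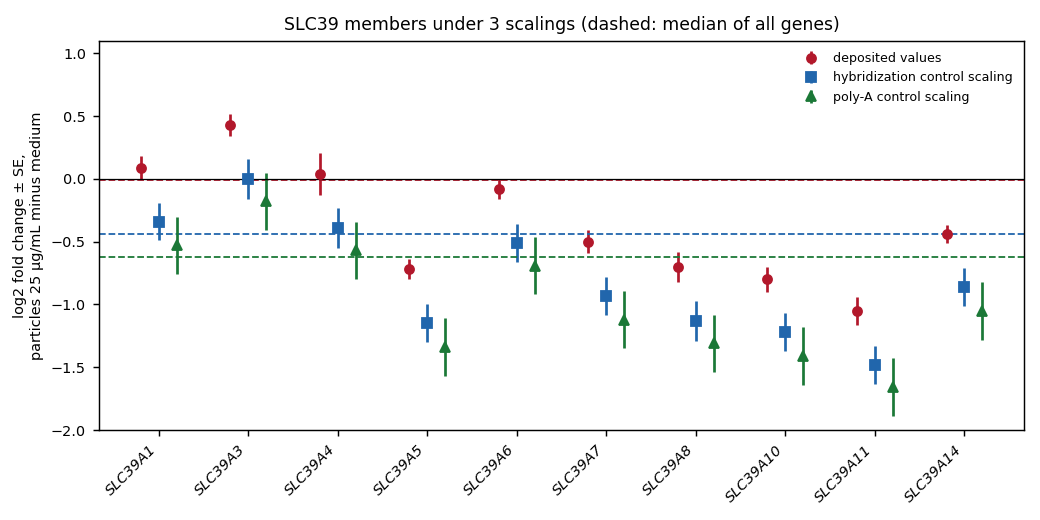
Log2 fold change with its SE (vertical axis) at 25 µg/mL against medium for the 10 members (horizontal axis) with the deposited values and after scaling the arrays on spike-in controls. Dashed lines are the median of all genes in each setting, at -0.011, -0.44 and -0.62. SLC39A11 lies below its line in every setting and SLC39A3 above it.

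At 2.5 µg/mL 0 of the 10 members passed the test, as did 0% of the 19775 genes. Member differences from medium lay between -0.17 and 0.07, with a median of -0.01 beside 0.002 for all genes. The alternative fits also called 0 members, and at most 8 of all genes. By limma without adjustment, only SLC39A6 among the brightest probe sets had a p under 0.05, as did 900 of all genes. SLC39A6 had 10.02, 9.98 and 10.10 at 2.5 µg/mL, just below its medium arrays (difference -0.17, 95% interval -0.33 to 0.00, limma adjusted p = 1), where 4.51% of all genes were lower and 5.45% higher without overlap. Of the 23 probe sets, 2 were lower and 0 higher without overlap, both of SLC39A6, beside 4.98% and 5.01% of all probe sets. For the 6 genes that fell at the higher dose, the 95% intervals of the low-dose difference ran from -0.31 to 0.09 for SLC39A7, from -0.22 to 0.23 for SLC39A10 and from -0.23 to 0.24 for SLC39A11. Those of the other three ran from -0.17 to 0.16 for SLC39A5, from -0.21 to 0.29 for SLC39A8 and from -0.17 to 0.14 for SLC39A14. None of these 6 intervals reached the difference measured for its gene at 25 µg/mL.

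With silver ions 0 of the 10 members passed the test, as did 0% of all genes in limma (0.00243% of all probe sets were lower), and the differences from medium lay between -0.29 and 0.06. The alternative fits called 0 members and at most 2 of all genes. Among the brightest probe sets SLC39A8 alone had an unadjusted p under 0.05, as did 1233 of all genes. It had 7.82, 8.12 and 7.80 with ions, against 8.05, 8.40 and 8.05 in medium, which overlap (difference -0.25, limma adjusted p = 0.80). By the brightest probe set no member had ion arrays wholly outside the medium arrays, where 5.32% of all genes were higher and 5.13% lower in that way. Of all 23 probe sets, 1 was lower and 3 higher without overlap, beside 6.3% and 5.03% of all probe sets, and each was a dimmer one. In the fit over all probe sets the dimmer sets of SLC39A14 had unadjusted p-values of 0.0085 (-0.39) and 0.047 (0.25). The lowest mean difference was that of SLC39A4, with 4.74, 4.94 and 5.36 with ions against 5.16, 5.29 and 5.45 in medium (-0.29, 95% interval -0.64 to 0.07). SLC39A11 and SLC39A10 had differences of -0.09 (interval -0.32 to 0.15) and 0.03 (interval -0.19 to 0.26).

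Set directly against the other exposures, the high dose gave the same division. Against 2.5 µg/mL, 6 members were lower and 1 higher, where 20.3% of all genes were lower and 13.7% higher. The arrays did not overlap for 6 lower and 2 higher members, SLC39A1 being the added one, beside 25.7% and 19.6% of all genes. SLC39A11 was lower by 1.05 (limma adjusted p = 4.1e-06) and SLC39A3 higher by 0.52 (limma adjusted p = 0.00037). Against the ions, 6 members were again lower and 1 higher, where 18.6% of all genes were lower and 13.7% higher. Arrays were apart for 6 lower and 1 higher members, beside 24.3% and 18.8% of all genes. Here SLC39A7 had the smallest called fall (-0.34 ± 0.09, limma adjusted p = 0.011), and this call was lost without 25 µg/mL replicate 2 (-0.30, adjusted p = 0.053). The silver dose and form differ between these groups, and the 3 comparisons share the 25 µg/mL arrays. Between 2.5 µg/mL particles and ions 0 members and 0% of all genes were called, with 2 members at an unadjusted p under 0.05 beside 1735 of all genes. These were SLC39A8 (0.29 higher with particles, 95% interval 0.04 to 0.54, limma adjusted p = 0.55) and SLC39A4 (0.36, interval 0.00 to 0.71, limma adjusted p = 0.57). The arrays were apart for SLC39A8 alone, where 6.39% of all genes were higher and 6.98% lower without overlap. Of the 4 groups, the 25 µg/mL group was lowest for all 6 genes that fell, and the neighbours among the other 3 groups overlapped in each of these genes.

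Zinc-handling genes outside the importer family were called in both directions at 25 µg/mL, where 14.1% of all genes were higher and 19.3% lower. The 9 measured metallothioneins were all higher, with a median of 3.58, including MT1X (means 14.10 at 25 µg/mL and 10.73 in medium) and MT2A (14.46 and 11.51). Differences were 4.35 for MT1G, 4.20 for MT1E and 3.82 for MT1H. MT1M had 8.52 at 25 µg/mL and 3.07 in medium, where it lay in percentile 1 of all genes with no stated background, so its difference has no known size. MT3 and MT4 were no longer called under either spike-in scaling. These copies are alike in sequence, so values of single copies are uncertain. At 2.5 µg/mL and with ions 0 of the 9 were called, with medians of -0.79 and -0.26. At the low dose 6 of the 9 had all arrays below medium, where 4.51% of all genes did, and 6 had an unadjusted p under 0.05. With ions 2 had such a p and 0 were apart from medium. MTF1 rose by 0.39 (limma adjusted p = 0.015), a call lost under poly-A (-0.23) and hybridization scaling (-0.04). Of 10 SLC30 exporter genes 3 were higher and 3 lower, with a median of 0.00. SLC30A2, a vesicular exporter, rose by 2.05, and SLC30A1, the plasma membrane exporter, by 0.67. SLC30A4 and SLC30A5, which load zinc into vesicles and the secretory pathway, had log2 fold changes of -0.68 (limma adjusted p = 0.00011) and -0.64 (limma adjusted p = 2.4e-05). The mean of all probe sets of a gene gave -0.30 for SLC30A4, -0.50 for SLC30A5, 1.34 for SLC30A2 and 0.82 for SLC30A1. The call of SLC30A1 was lost under both scalings, at 0.05 with poly-A and 0.24 with hybridization controls. Neither the low dose nor the ions gave a called exporter, 0 of 10 in each.

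**Figure D4:**
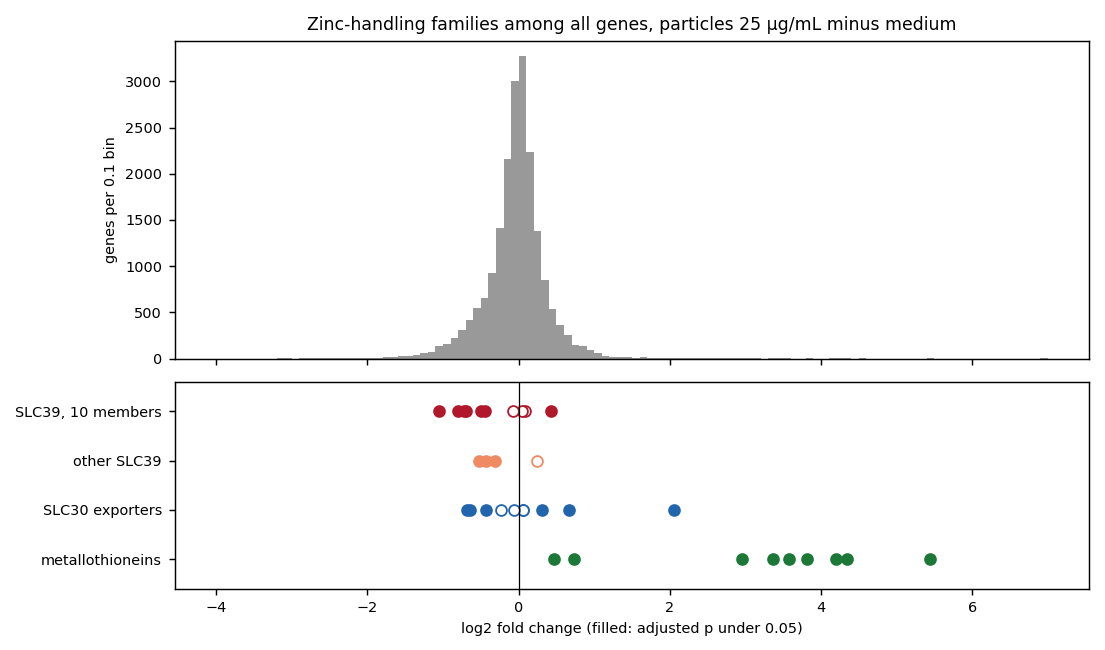
Log2 fold change at 25 µg/mL against medium (horizontal axis, shared). The upper panel counts all 19775 genes in bins of 0.1, and the lower panel shows each measured gene of 4 families, filled where the adjusted p is under 0.05. The 10 SLC39 members lie between -1.05 and 0.43 and the metallothioneins at 0.47 and above.

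The remaining SLC39 genes were SLC39A2, SLC39A9, SLC39A12 and SLC39A13, of which 3 were lower and 0 higher by their brightest probe set. Over all genes 19.3% were lower and 14.1% higher. SLC39A13 (ZIP13), a transporter of the Golgi and of vesicles, fell on both of its probe sets, by 0.43 and 0.63. SLC39A9 (ZIP9) gave opposite calls. Its brightest probe set had a mean of 9.80 at 25 µg/mL and 10.11 in medium (-0.31 ± 0.08), while another had 6.11 at 25 µg/mL and 5.03 in medium (1.08 ± 0.13, adjusted p = 1.9e-05) and a further one had 5.17 and 4.53 (0.64 ± 0.14, adjusted p = 0.0023). SLC39A2 was dim (4.13 and 4.67), and SLC39A12 had 3.98 and 3.74.

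Of 9 importers of other metals or their partners, 4 were lower and 1 higher, beside 19.3% and 14.1% of all genes. SLC41A2, a magnesium transporter, fell by 1.42 and SLC11A2 (DMT1), the main iron importer of the enterocyte brush border, by 0.72. TRPM7, a divalent cation channel, fell by 0.49 and SLC46A1, a folate carrier, by 0.45. With the mean of all probe sets of a gene, the changes were -0.89, -0.60, -0.16 and -0.21 in that order. SLC31A2, a relative of the copper importer, had a log2 fold change of 0.63 (limma adjusted p = 0.00012). This rise was lost under poly-A (0.01) and under hybridization scaling (0.20).

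A list of regulators known from other settings to act on SLC39A8 or SLC39A14, with genes of the unfolded protein response, held 2 higher and 2 lower of 8 genes. Over all genes 14.1% were higher and 19.3% lower, shares that stand beside both lists of this paragraph. NFKB1, an NF-kB subunit, and HSPA5, an ER chaperone, had log2 fold changes of 0.30 (limma adjusted p = 0.019) and 0.22 (limma adjusted p = 0.035). Under poly-A and hybridization scaling NFKB1 stood at -0.31 and -0.13 and HSPA5 at -0.39 and -0.20, none called. These values lie above the median gene of those settings, at -0.62 and -0.44. ATF6 and STAT3 fell by 0.52 (limma adjusted p = 0.0044) and 0.28 (limma adjusted p = 0.036). With the mean of all probe sets of a gene, ATF6 had -0.20 and STAT3 -0.14. ATF4 had -0.22 and DDIT3 -0.27, neither called. Of the 7 genes listed for zinc regulation, 3 were higher and 1 lower, SP1 with -0.72 (limma adjusted p = 3.7e-05). CSNK2A1 (0.47) and NFE2L2 (0.27) were the other higher ones, and neither was called under a spike-in scaling. The mean of all probe sets of a gene gave -0.43 for SP1, 0.28 for CSNK2A1 and 0.25 for NFE2L2. The low dose and the ions gave 0 calls in these lists.

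The genes whose profile over the 12 arrays was most like that of SLC39A11 were NDUFB1, a subunit of respiratory complex I, POLR3GL, a subunit of RNA polymerase III, and ARL6IP5, a membrane protein of the endoplasmic reticulum. Their root mean square differences from SLC39A11 were 0.070, 0.078 and 0.078 log2 units, after centring each gene on its medium mean. NDUFB1 had 10.17 at 25 µg/mL and 11.11 in medium. The genes most like SLC39A3 were NUP85, a nucleoporin (0.060), the antisense RNA ENTPD1-AS1 (0.062) and DNAJC8, a J-domain protein of the spliceosome (0.062). This likeness is a description of these 12 arrays.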

How the data were processed

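Biotin-labelled cRNA of 12 samples was hybridized to expression arrays, 1 per sample. The authors deposited normalized log2 values, 1 per probe set. Per the submitters' processing notes, RMA and Partek were used, with versions and settings not given in the sources used here. The mean over the 12 arrays was 5.57, and array medians lay between 4.72 and 4.79. The number of arrays limits the precision.

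The table held 54675 probe sets, 62 of them controls. In the platform annotation 41097 had 1 symbol, 1801 several and 11721 no listed gene. The RefSeq symbol was taken by gene ID where the ID was found, for 41043 probe sets, whether or not the symbol differed. Of the 1-symbol probe sets of a gene, the brightest on average stood for it. A linear model of the 4 groups was fitted with limma 3.58.1 in R 4.3.3 to all 19775 genes (8 residual and 6.25 prior degrees of freedom), with 6 two-sided contrasts. A call was a Benjamini-Hochberg adjusted p under 0.05, taken over every gene tested. A second fit used every 1-symbol probe set. The fit was tested on simulated data. The labels give no replicate numbers, so replicates are numbered in accession order. The members and lists were chosen with earlier results of these data known. All members are named, with up to 4 called genes of each list, MT1X, MT2A, SLC30A1, MTF1 and the 3 genes most like the largest rise and fall. Genes named beyond that rule were chosen after their values were seen. Alternatives were other normalizations and scalings, a dim-gene filter, other probe-set summaries, variance models and thresholds, fits of 2 groups, and leaving out each array. Figures were drawn with matplotlib 3.10.9.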

Additional observations from a re-analysis of the deposited data

How the results depend on the processing

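At 25 µg/mL against medium, the 6 falls were called under quantile normalization, median centring, both spike-in scalings, the dim-gene filter, the 3 other variance models, every probe set tested, 2-group fits, an adjusted p under 0.01 and without any 1 array. Only averaging the probe sets of each gene reduced them, to 4. Without 1 array, 6 members were lower and 1 higher each time, against medium and against 2.5 µg/mL. Against ions 5 to 6 were lower and 1 to 2 higher, because SLC39A4 passed without ion replicate 3 (0.50, adjusted p = 0.033) and SLC39A7 did not without 25 µg/mL replicate 2. At an adjusted p under 0.01, 5 were lower against ions. The count of higher members was 0 in place of 1 under poly-A scaling and hybridization scaling against medium, 2.5 µg/mL and ions, and 0 with the mean of probe sets against medium and ions. It was 2 against 2.5 µg/mL with quantile normalization, SLC39A1 being added (0.22). The cause was not tested. Under poly-A scaling against medium, SLC39A1 stood at -0.53, SLC39A3 at -0.18 and SLC39A4 at -0.57, and under hybridization scaling SLC39A1 at -0.34 and SLC39A4 at -0.39. Against 2.5 µg/mL poly-A scaling gave -0.62 for SLC39A1, -0.22 for SLC39A3 and -0.66 for SLC39A6. Against ions it gave -0.70 for SLC39A1, -0.42 for SLC39A3 and -0.77 for SLC39A6, and hybridization scaling gave -0.35, -0.06 and -0.42 for these genes. Lower members numbered 9 under both scalings against medium, since scaling shifts every gene of an array. Over all genes, higher and lower calls against medium were 2796 and 3811, and became 179 and 14081 under poly-A scaling and 508 and 12835 under hybridization scaling. With every probe set tested they were 5337 and 6524. Against 2.5 µg/mL they were 2705 and 4012, and became 134 and 16869 with poly-A, 569 and 9067 with hybridization controls and 5307 and 6720 over probe sets. Against ions they were 2702 and 3676, and became 141 and 17368, 498 and 13817, and 5534 and 5895 in these settings. At 2.5 µg/mL and with ions, 0 members were called under any of these settings. Over all genes at 2.5 µg/mL, 8 were called lower with an intensity trend and 8 with hybridization scaling, and with ions 2 and 1, with 1 each over probe sets and over their means. SLC39A4 did not pass the dim-gene filter and has no value there. The values carry no detection calls, so signal over background is unknown. No paired analysis was possible because the labels give no replicate numbers that groups share.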
